A study of Mus musculus with 12 samples.

Results

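Sinusoidal endothelial and capillarization markers are 10 genes whose products mark the cells lining the blood vessels of the liver. They were taken as a fixed list of names, and the level of a gene in a liver was the sum of FPKM (sequenced fragments scaled to transcript length and library depth) over every deposited transcript with its symbol. The 10 genes are among 24296 genes with a symbol and hold 54 of the 169430 transcripts in the table. The list has 5 sinusoidal markers (Stab1, Stab2, Lyve1, Clec4g and Fcgr2b) and 2 genes found in endothelium of all kinds (Pecam1 and Cdh5). Its other 3 genes, Cd34, Plvap and Vwf, were taken as markers of ordinary capillaries and larger vessels.

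The sinusoids of the liver are lined by an endothelium with open pores, called fenestrae, and without a continuous basement membrane, so that plasma reaches the hepatocytes directly. These cells clear waste molecules from the blood with scavenger receptors and lectins, which is why such receptors serve as their markers. In chronic liver injury the lining can lose its pores and take on a basement membrane and surface proteins of ordinary capillaries, a change called capillarization.

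The livers came from male C57/BL6N mice in 4 groups of 3. The control group carries the label WT. The model group received carbon tetrachloride (CCl4), a toxin that injures hepatocytes, dissolved in a larger volume of olive oil. The injections were intraperitoneal, at 5 mL/kg body weight, 2 times per week for 8 weeks. The silibinin group and the phloridzin group had the same CCl4 course and were given their drug from week 5. Silibinin is a flavonolignan of milk thistle, and phloridzin is a plant glucoside known as an inhibitor of sodium-glucose transport, here at the study's high dose. The labels describe the 3 livers of a group only as separate samples, so p-values measure the spread between these samples. Whole livers were sequenced as total RNA, so fewer endothelial cells and less RNA per endothelial cell cannot be told apart.

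The steps between low FPKM values gave the depth of each library in units of 1e6 fragments, from 83.7 in model 1, the lowest, to 111 in silibinin 2, the highest. Each of the 10 genes was found in every liver, with 176 fragments at the lowest (Cd34 in control 2) and 10785 at the highest (Stab2 in phloridzin 2). All 7 hepatocyte markers were also present in every liver, led by albumin (Alb) at 10970 to 29357 FPKM.

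**Figure D1:**
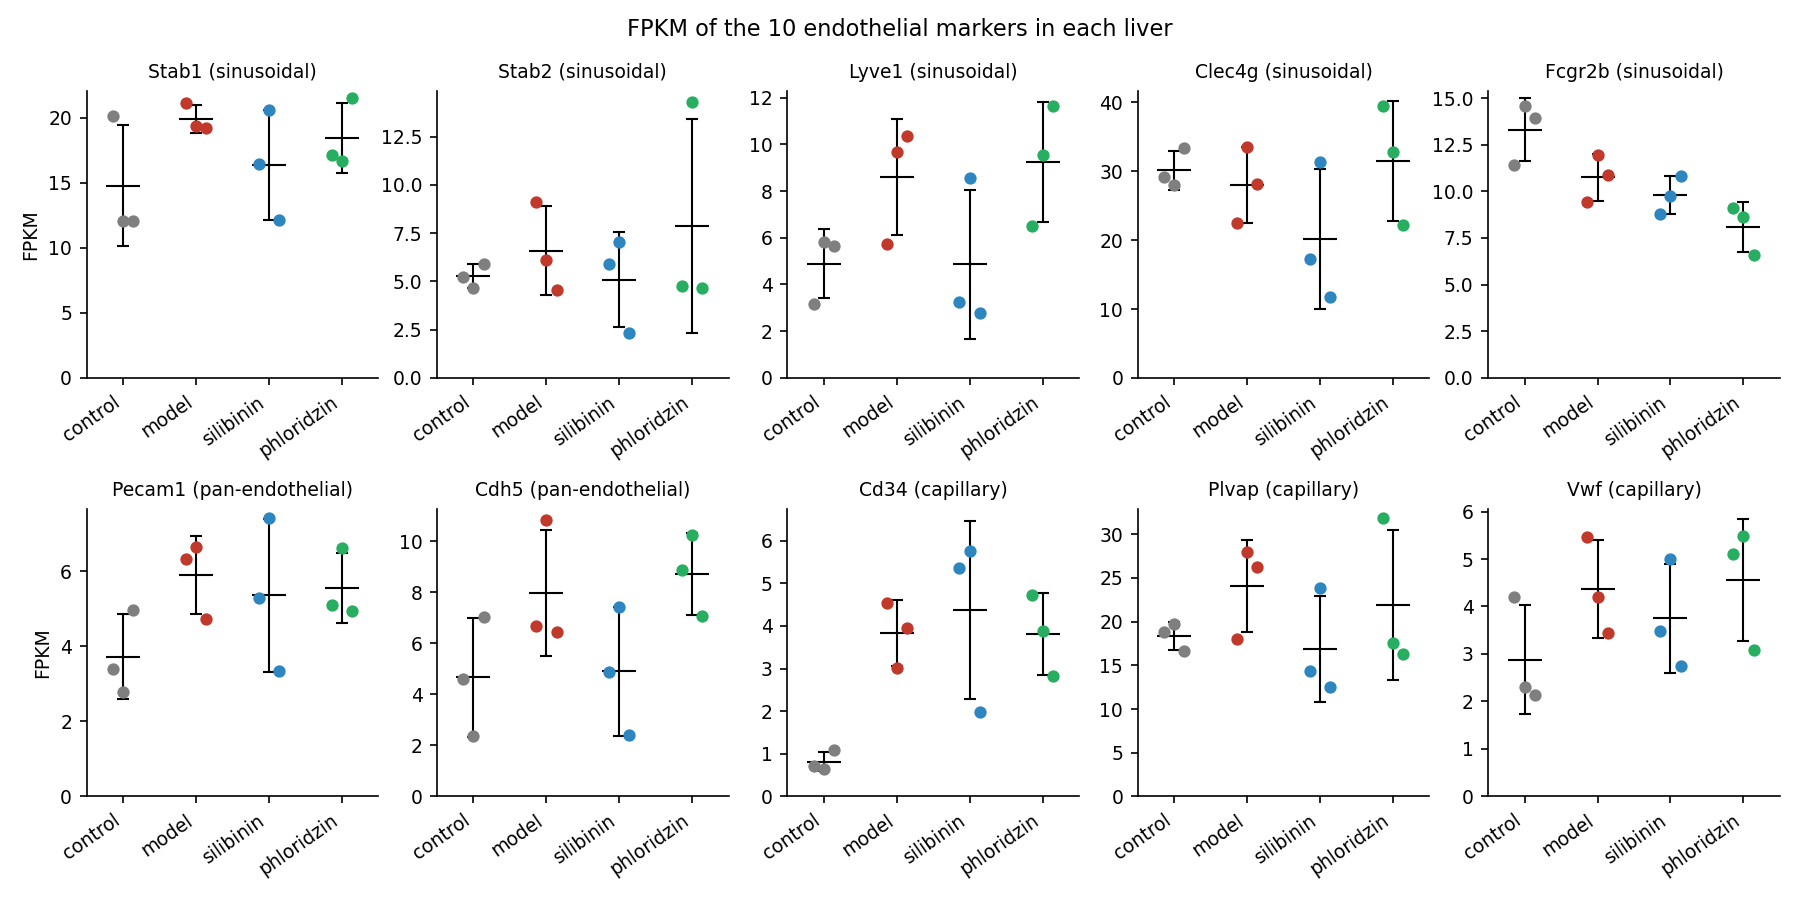
FPKM of each of the 10 markers in each liver (points), by group, with the group mean and SD (n = 3) in black; every vertical axis starts at 0. The 3 control livers sit at 0.65 to 1.08 FPKM for Cd34 and every other liver lies at 1.98 FPKM or above, while the groups overlap for most other markers.

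Cd34 was the marker that separated CCl4 livers from control livers. It encodes a sialomucin of capillary endothelium that is also carried by haematopoietic progenitors and fibroblasts, and lies at chr1:194938819-194961279 on the plus strand of mm10 (ENSMUSG00000016494). Its level was 0.719, 0.65 and 1.08 FPKM in the control livers and 4.54, 3.01 and 3.96 FPKM in the model livers. In the silibinin livers it was 5.36, 5.77 and 1.98 FPKM, and in the phloridzin livers 4.73, 3.87 and 2.82 FPKM. The 9 livers given CCl4 were all above the 3 control livers, and the model and drug groups overlapped one another.

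Cd34 rose from 0.816 ± 0.231 FPKM in the control group to 3.84 ± 0.772 FPKM in the model group (SD, n = 3), a ratio of 4.70. On the scale of log2(FPKM + 1), which understates changes of low genes, the difference was 1.41 ± 0.29 (SE), with an adjusted p of 0.0046 from limma over all genes tested. The median of the 13158 genes tested was itself 0.34 higher in the model group, which leaves Cd34 1.07 above that shift. Cd34 was also higher in the silibinin group (1.48, adjusted p = 0.021) and in the phloridzin group (1.39, adjusted p = 0.020) than in the control group by limma. The model comparison kept its call with any 1 liver left out, with adjusted p values of 0.00068 to 0.019. The silibinin comparison lost it without control 1 (0.071), control 2 (0.073), silibinin 1 (0.086) or silibinin 2 (0.091), and the phloridzin comparison without control 1 (0.068), control 2 (0.069), phloridzin 1 (0.065) or phloridzin 2 (0.054), all as adjusted p values by limma. In a fit of these 2 groups alone the silibinin call was also lost (1.48, adjusted p = 0.055 by limma). From the transcript with the highest mean alone, both calls were lost by limma. The difference was then 1.25 with silibinin (adjusted p = 0.099) and 1.22 with phloridzin (adjusted p = 0.078).

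The Cd34 sum came mainly from its full-length coding transcript ENSMUST00000016638 (73.9%) and from a second coding transcript, ENSMUST00000110815 (22.6%). The remaining transcripts have a retained intron. The rise was therefore measured on coding transcripts, which were 0.69, 0.643 and 1.07 FPKM in the control livers and 4.38, 2.86 and 3.76 FPKM in the model livers.

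RefSeq promoter windows (GRCm38.p6) were at hand for 5 of the 10 genes, and 250 bases before the start were searched on both strands for AGATAA, a core of GATA factor sites, and AGGAAG, a core of ETS factor sites; both factor families act in endothelial cells. AGGAAG was in 4 of the 5 windows (Stab1, Stab2, Clec4g and Cd34, not Fcgr2b), and in 29.5% of all 32851 windows of that length. AGATAA was in 0 of the 5 and in 9.99% of all windows. Of the 250 bases, 0 lie before the first annotated base of the gene for Fcgr2b, 167 for Stab2 and 248 for Cd34. The AGGAAG match of Stab2 is not within its 167 bases. The letters of 3 windows are printed as a comparison of the marker that rose with sinusoidal markers that did not pass the test, from before the first annotated base of the gene, with AGGAAG or its reverse complement CTTCCT in capitals. Cd34 is shown at chr1:194938571-194938818 (plus strand), Stab1 at chr14:31168642-31168891 and Clec4g at chr8:3720652-3720901 (both minus strand). In Clec4g, 2 of the 3 matches overlap. A match only describes these letters.
Cd34: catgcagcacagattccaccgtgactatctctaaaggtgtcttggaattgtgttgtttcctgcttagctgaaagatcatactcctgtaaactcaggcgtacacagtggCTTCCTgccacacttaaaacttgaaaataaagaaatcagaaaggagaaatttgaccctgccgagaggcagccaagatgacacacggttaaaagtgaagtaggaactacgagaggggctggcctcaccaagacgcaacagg
Stab1: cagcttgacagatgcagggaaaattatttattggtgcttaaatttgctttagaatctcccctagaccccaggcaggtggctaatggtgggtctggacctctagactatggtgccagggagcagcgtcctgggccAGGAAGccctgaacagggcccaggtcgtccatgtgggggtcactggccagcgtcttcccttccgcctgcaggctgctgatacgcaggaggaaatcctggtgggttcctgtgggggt
Clec4g: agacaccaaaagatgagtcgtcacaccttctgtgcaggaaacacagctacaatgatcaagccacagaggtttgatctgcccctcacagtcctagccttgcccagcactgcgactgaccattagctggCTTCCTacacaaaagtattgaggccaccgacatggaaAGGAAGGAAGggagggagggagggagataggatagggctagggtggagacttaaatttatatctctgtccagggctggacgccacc

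Across the list, 1 of the 10 markers passed the test in the model against the control group (adjusted p under 0.05, either direction), and 34.9% of all genes tested did. The groups did not overlap for 1 of the 10, against 52.0% of all genes tested. These counts describe the list beside genes at large. The median log2 fold change of the 10 was 0.47, against 0.34 for all genes.

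**Figure D2:**
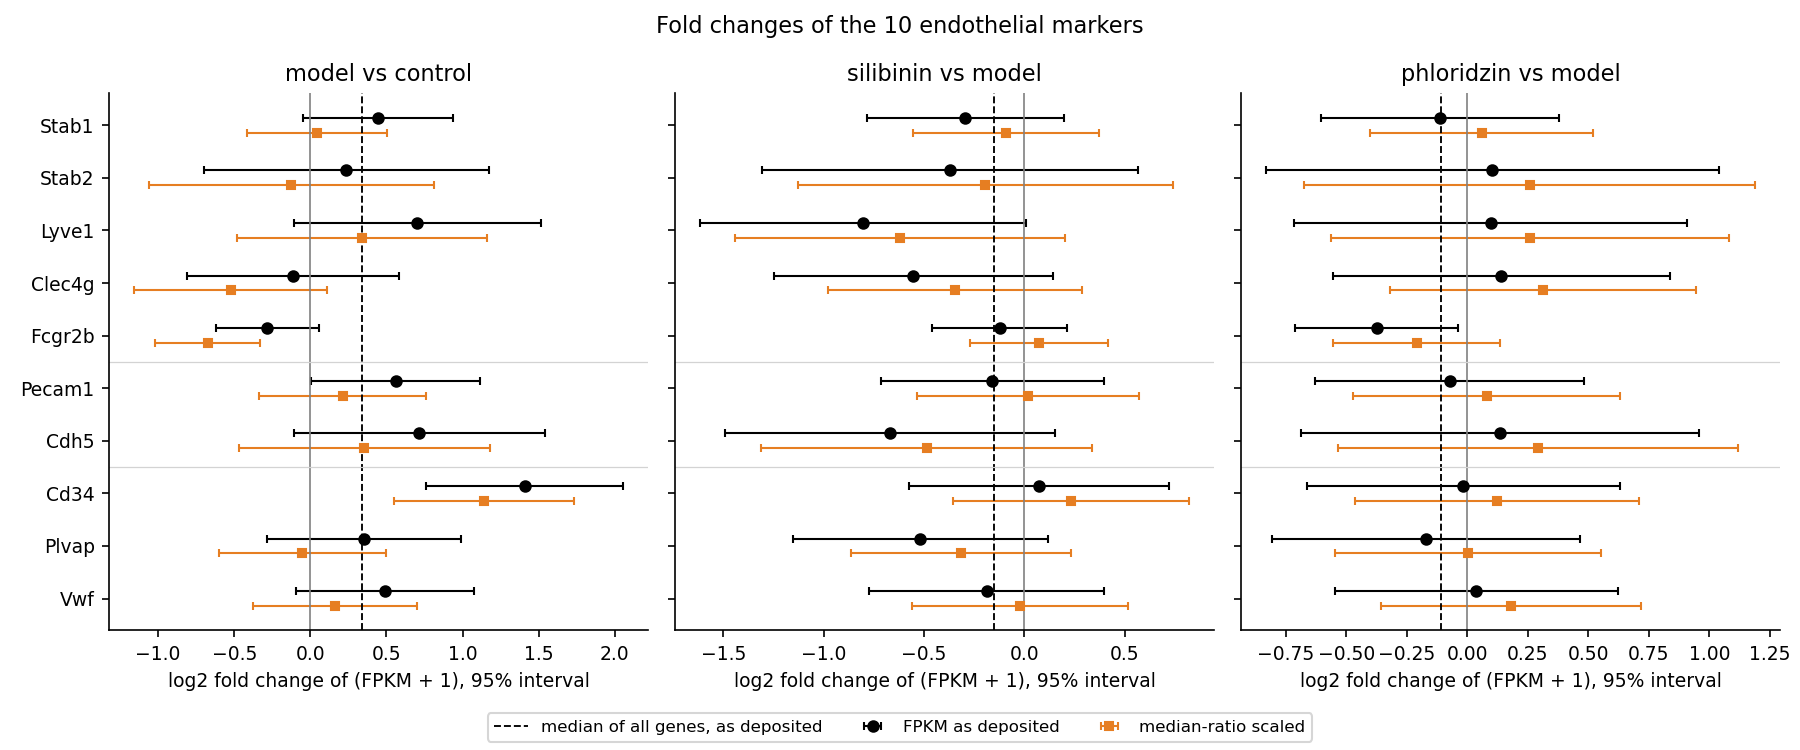
Log2 fold change of FPKM + 1 with its 95% interval for each marker in 3 comparisons, from FPKM as deposited (black circles) and after median-ratio scaling (orange squares); the dashed line is the median of all genes as deposited. In the model against the control group, Cd34 (1.41) lies clear of 0 on both scales, and several other markers sit near the dashed line at 0.34. Fcgr2b lies below 0 after median-ratio scaling only (-0.67, interval -1.02 to -0.33). Pecam1 lies just above 0 as deposited only (0.56, interval 0.0071 to 1.12).

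Both pan-endothelial genes had wide spreads. Pecam1, an adhesion molecule of endothelial cell borders, was 3.41, 2.79 and 4.98 FPKM in the control livers and 6.33, 6.66 and 4.72 FPKM in the model livers, and did not pass (0.56, adjusted p = 0.11 by limma). Cdh5, the cadherin of endothelial junctions, was 4.60, 2.38 and 7.04 FPKM in the control livers and 6.68, 10.8 and 6.43 FPKM in the model livers, and did not pass either (0.72, adjusted p = 0.16 by limma). For each gene the highest control liver lay inside the range of the model livers. Set against Pecam1 in the same liver, Cd34 was at a ratio of 0.211, 0.232 and 0.217 in the control livers and 0.718, 0.453 and 0.837 in the model livers. Set against Cdh5 it was 0.156, 0.273 and 0.153 in the control livers and 0.681, 0.278 and 0.615 in the model livers, so that model 2 was close to control 2.

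The other capillary markers did not pass in this comparison. Plvap, which forms the diaphragms of endothelial pores and caveolae, was 18.8, 19.8 and 16.6 FPKM in the control livers and 18.1, 27.9 and 26.3 FPKM in the model livers (0.35, adjusted p = 0.37 by limma). Its control mean of 18.4 FPKM was above those of Stab1 (14.8), Fcgr2b (13.3), Stab2 (5.27) and Lyve1 (4.89) and below that of Clec4g (30.2). Plvap was thus not a low gene in livers without CCl4. Vwf, the von Willebrand factor of larger vessels and platelets, was 4.20, 2.31 and 2.14 FPKM against 5.47, 4.21 and 3.44 FPKM (0.49, adjusted p = 0.17 by limma). Model 1 was within the control range for Plvap, and control 1 was within the model range for Vwf. After median-ratio scaling the sign of Plvap turned to -0.05.

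The sinusoidal markers showed no loss that passed the test in the model group as deposited. Stab2, a scavenger receptor for hyaluronan, was 5.23, 4.67 and 5.91 FPKM in the control livers and 9.10, 6.12 and 4.56 FPKM in the model livers. Clec4g, a lectin of sinusoidal endothelium, was 29.2, 28.0 and 33.4 FPKM against 22.6, 33.6 and 28.1 FPKM. Their groups overlapped, with log2 fold changes of 0.24 (95% interval -0.70 to 1.17) and -0.11 (-0.81 to 0.58). After median-ratio scaling Clec4g was -0.52 (-1.16 to 0.11) and Stab2 turned to -0.13 (-1.06 to 0.81), so losses of up to about these lower bounds are not excluded.

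Lyve1, a hyaluronan receptor shared with lymphatic endothelium and some macrophages, was 3.18, 5.84 and 5.64 FPKM in the control livers and 5.75, 9.68 and 10.3 FPKM in the model livers (0.70, adjusted p = 0.16 by limma). Only model 1 lay within the control range. Stab1, a scavenger receptor shared with macrophages, was 20.2, 12.1 and 12.1 FPKM against 21.1, 19.4 and 19.2 FPKM (0.44, adjusted p = 0.14 by limma). Control 1 stood above 2 of the model livers, and without it the difference in Stab1 was 0.67 with an adjusted p of 0.034 by limma.

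Fcgr2b, the inhibitory Fc gamma receptor of sinusoidal endothelium, B cells and macrophages, was 11.4, 14.6 and 13.9 FPKM in the control livers and 9.43, 11.9 and 10.9 FPKM in the model livers. It was 8.78, 9.77 and 10.8 FPKM in the silibinin livers and 9.13, 8.60 and 6.59 FPKM in the phloridzin livers. All 6 livers given a drug were below all 3 control livers, and the phloridzin livers were also below the model livers. Fcgr2b fell in the phloridzin against the control group (-0.66 ± 0.15, SE, adjusted p = 0.029 by limma), from 13.3 ± 1.69 to 8.11 ± 1.34 FPKM (SD, n = 3).

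That call was lost with 1 transcript taken out and with any of 4 livers left out. A fit of the 2 groups alone also lost it (-0.655, adjusted p = 0.1 by limma). It was lost as well from the transcript with the highest mean alone (-0.669, adjusted p = 0.58) and from protein-coding transcripts (-0.811, adjusted p = 0.33) by limma. ENSMUST00000027966, a coding transcript of Fcgr2b, was at 6.80 FPKM in control 2 and at no more than 0.0608 FPKM in any other liver. With it taken out of the sum, control 2 was at 7.78 FPKM, inside the phloridzin range, and the phloridzin against control difference was -0.38 with an adjusted p of 0.26 by limma. Without control 2 altogether it was -0.59 (adjusted p = 0.097), and it also missed the threshold without control 3 (-0.62, 0.086), phloridzin 2 (-0.70, 0.055) or phloridzin 3 (-0.53, 0.060). In the model against the control group Fcgr2b did not pass as deposited (-0.28, adjusted p = 0.17 by limma) but did after median-ratio scaling (-0.67, adjusted p = 0.011), and without that transcript the deposited difference was -0.0082.

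**Figure D3:**
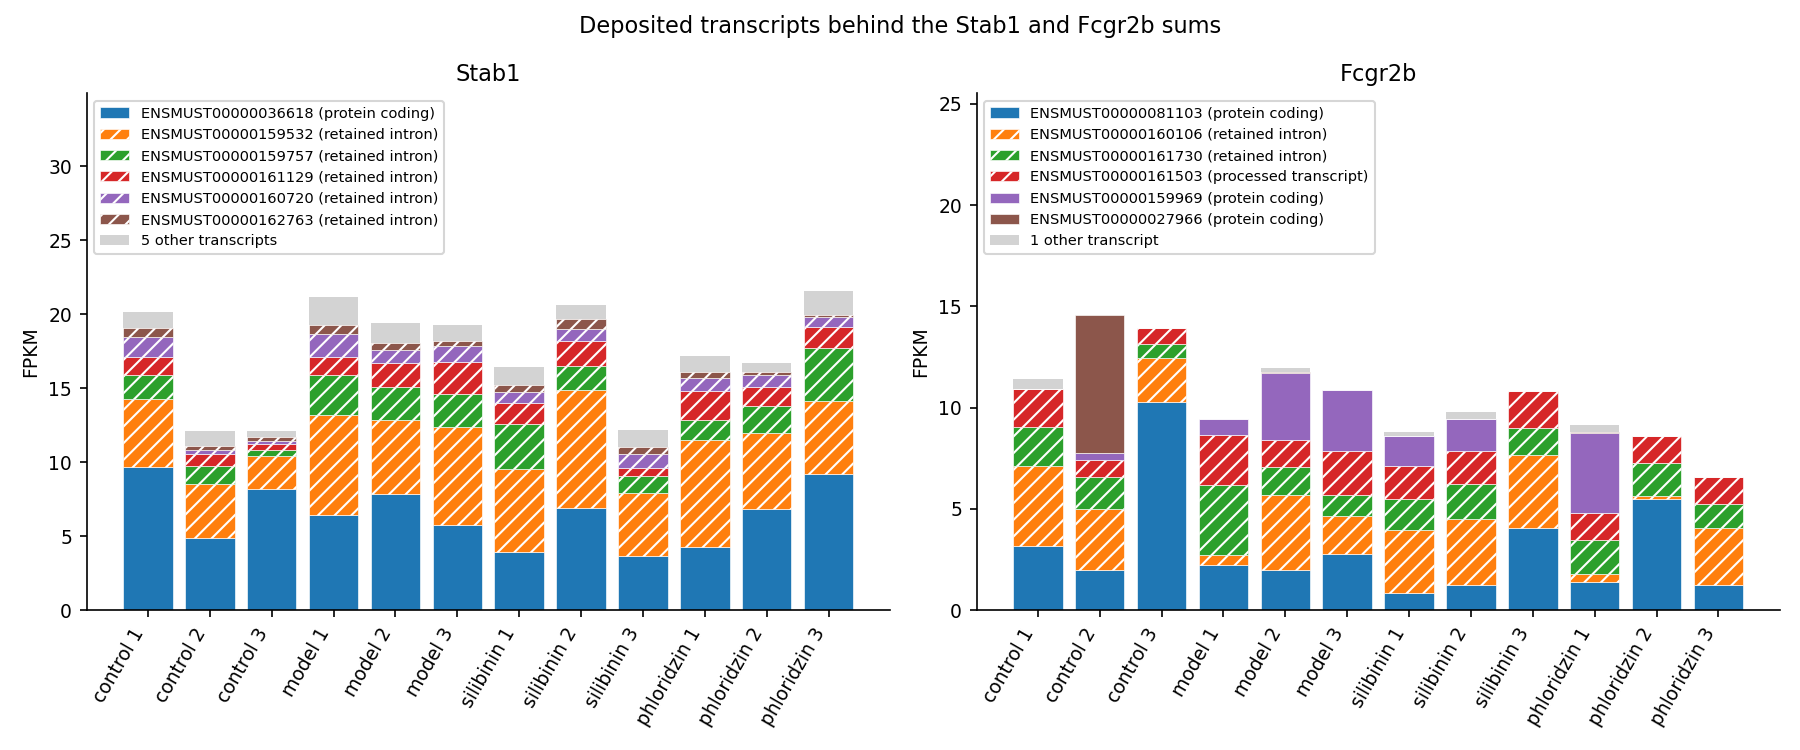
FPKM of the deposited transcripts of Stab1 and Fcgr2b in each liver, stacked; hatched bars are transcripts annotated without a coding sequence, and grey holds the remaining transcripts. Fcgr2b in control 2 has a block of 6.80 FPKM from ENSMUST00000027966 that no other liver shows, and hatched transcripts make up much of both genes.

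Transcripts annotated as coding were the smaller share for 2 of the sinusoidal markers. Rows that are not protein-coding, mainly retained introns, held 60.8% of the Stab1 sum and 52.6% of the Fcgr2b sum over the 12 livers. For Stab1 this share was 49.1%, 57.9% and 32.4% in the control livers and 68.0%, 55.6% and 68.7% in the model livers, which overlap. Coding Stab1 alone was 10.3, 5.10 and 8.19 FPKM in the control livers and 6.77, 8.62 and 6.03 FPKM in the model livers, so that the sign of its log2 fold change turned from 0.44 to -0.09. By contrast, coding rows made up 98.5% of Clec4g, 97.4% of Lyve1 and all of Cdh5 and Plvap.

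The balance of the markers was followed in each liver as the mean log2(FPKM + 1) of the 5 sinusoidal markers less that of the 3 capillary markers. It was 1.04, 1.29 and 1.36 in the control livers and 0.56, 0.80 and 0.67 in the model livers. The silibinin livers had 0.37, 0.50 and 0.51, and the phloridzin livers 0.27, 0.90 and 0.93. Every liver given CCl4 was below every control liver in this balance. With Cd34 left out the balance was 0.19, 0.51 and 0.75 in the control livers and 0.23, 0.26 and 0.29 in the model livers, which overlap.

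**Figure D4:**
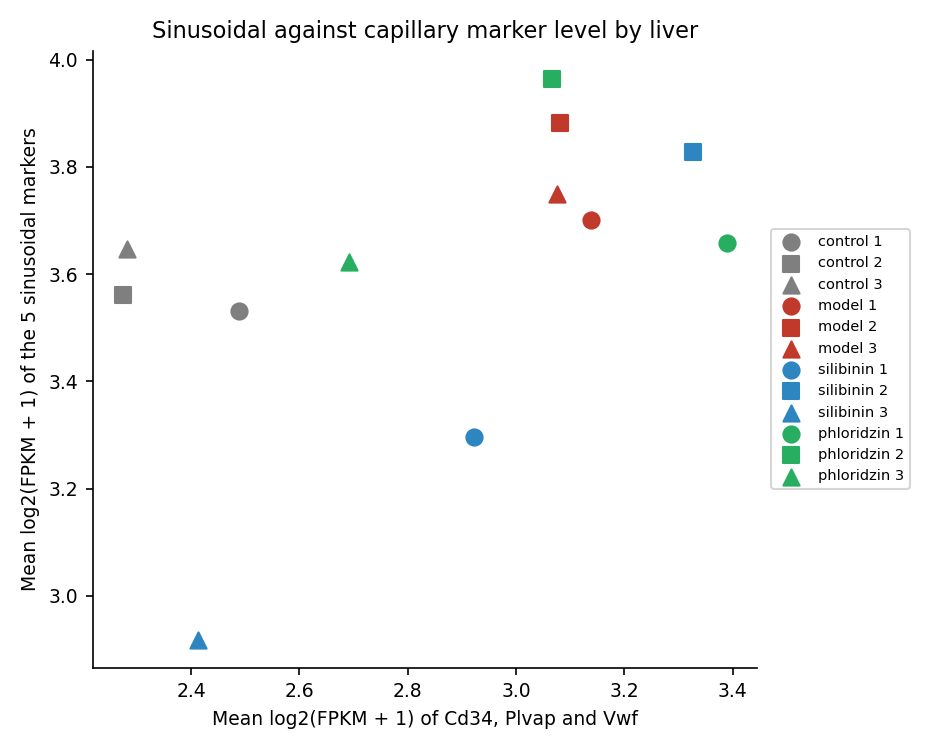
Mean log2(FPKM + 1) of the 5 sinusoidal markers against that of Cd34, Plvap and Vwf in each of the 12 livers, coloured by group with a symbol for each replicate. Model livers lie to the right of control livers (3.08 to 3.14 against 2.27 to 2.49) and somewhat higher (3.70 to 3.88 against 3.53 to 3.65), and silibinin 3 is lowest for the sinusoidal markers (2.92).

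Neither drug moved a marker past the threshold relative to the model group. In the silibinin against the model group 0 of the 10 passed, where 14.1% of all genes did, and the groups did not overlap for 0 of the 10, against 36.7% of all genes. At an unadjusted p under 0.05 the limma count was also 0, where 3844 of 13158 genes were under it, and voom gave 0. Silibinin 3 was the lowest of the silibinin livers for 9 of the 10 markers and silibinin 2 the highest for 9. Lyve1 shows this spread, at 3.26, 8.55 and 2.76 FPKM, against 5.75, 9.68 and 10.3 FPKM in the model livers. Its log2 fold change was -0.81 (adjusted p = 0.17 by limma), and without silibinin 2 it was -1.22 (adjusted p = 0.036). Clec4g was 17.2, 31.4 and 11.7 FPKM in the silibinin livers (-0.55, adjusted p = 0.28 by limma).

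In the phloridzin against the model group 0 of the 10 passed by limma, where 12.9% of all genes did. The groups did not overlap for 1 of the 10, Fcgr2b, against 30.6% of all genes, and its log2 fold change of -0.37 had an adjusted p of 0.14. Fcgr2b was also the 1 marker with an unadjusted p under 0.05, where 3662 of 13158 genes were under it, and voom gave 0 calls. Stab2 was 4.74, 14.3 and 4.65 FPKM in the phloridzin livers, so that phloridzin 2 alone set its mean above that of the model group. Cd34 differed from the model group by -0.02 (95% interval -0.66 to 0.63) with phloridzin and by 0.07 (-0.57 to 0.72) with silibinin.

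Both drug groups were compared with the same model livers, so their values are given side by side. Set directly against each other, phloridzin and silibinin differed in 0 of the 10 markers by limma, where 0.0228% of all genes passed, and the groups did not overlap for 0 of the 10, against 7.99% of all genes. At an unadjusted p under 0.05 there was 1 marker, Lyve1 (0.90, adjusted p = 1), and 494 of 13158 genes, and voom gave 0 calls. Against the control group, 1 of the 10 passed with silibinin (5.02% of all genes) and 2 of the 10 with phloridzin (7.99% of all genes). Groups did not overlap for 2 of the 10 with silibinin (30.4% of all genes), Cd34 and Fcgr2b, and for 4 of the 10 with phloridzin (29.8% of all genes), Cd34, Cdh5, Lyve1 and Fcgr2b.

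A wider list held 20 capillary, arterial and venous genes. Of the 15 that could be tested, 9 rose and 0 fell in the model group, where 31.1% of all genes rose and 3.80% fell, and the median log2 fold change was 0.63. The filter favoured such counts, since 7 of the 15, and 5 of the 9 that rose, had a control mean under 0.5 FPKM and were tested through their level in livers given CCl4. With no filter 10 of all 20 rose and 0 fell, where 4307 of 23651 genes rose. Vcam1, an adhesion molecule for leukocytes, was 6.19, 7.70 and 3.50 FPKM in the control livers and 20.2, 31.3 and 23.4 FPKM in the model livers (1.96, adjusted p = 0.00032 by limma). Col15a1, a basement membrane collagen, rose from a mean of 0.0805 to 3.19 FPKM (1.87, adjusted p = 0.010 by limma). Fabp4, a fatty acid carrier of capillary endothelium, rose from 1.55 to 4.90 FPKM (1.19, adjusted p = 0.00096 by limma). Whole livers were measured, and the part of other cells in the rises of this list, such as Vcam1, Col15a1 and Fabp4, was not tested. After median-ratio scaling 5 of 13 still passed, these 3 genes with Ednrb and Ackr1, where 1800 of 13090 genes rose; Col15a1 and Ackr1 are among the genes the filter favoured.

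Wider sinusoidal and pan-endothelial lists were read beside the 31.1% of all genes that rose. Of 14 other sinusoidal genes 2 rose and 0 fell, namely Adam23 (0.69) and Gata4 (0.54), a transcription factor of sinusoidal identity, and neither passed after median-ratio scaling, where Ehd3 alone was called and was lower. The Gata4 call was also lost without any control liver or without model 1 or model 3 (adjusted p of 0.060 to 0.11), and Adam23 did not pass from protein-coding transcripts (0.45, adjusted p = 0.70). With no filter Gata4 was at 0.54 with an adjusted p of 0.052 by limma. From the transcript with the highest mean alone, Gata4 (0.52, adjusted p = 0.067) and Adam23 (0.45, adjusted p = 0.73) did not pass by limma. Of 19 other pan-endothelial genes 4 rose and 0 fell, led by Ecscr (0.82), Esam (0.55) and Tie1 (0.52), and Ecscr alone passed after that scaling. The Esam call was lost without control 1 (0.064), control 3 (0.056), model 1 (0.074) or model 3 (0.068). Esam (0.44, adjusted p = 0.09) and Tie1 (0.71, adjusted p = 0.051) did not pass by limma from the transcript with the highest mean alone. On the TPM scale 5 of 14 and 10 of 20 rose, where 6596 of 14692 genes did. The medians of these lists as deposited were 0.31 and 0.30, close to the 0.34 of all genes. Among 4 endothelial growth factors tested, Vegfb (0.69) and Vegfc (0.64) rose, both without a call after median-ratio scaling. Vegfa, the most abundant of them, went the other way without overlap, at 9.95, 11.7 and 12.5 FPKM in the control livers and 8.69, 5.51 and 5.25 FPKM in the model livers, and did not pass (-0.75, adjusted p = 0.13 by limma).

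Of 3 flow-responsive endothelial genes, Klf4 and Thbd differed between the drug groups and the model group as deposited. Klf4, a transcription factor induced by laminar flow and by injury, was 0.624, 0.463 and 1.08 FPKM in the control livers and 2.69, 3.41 and 2.73 FPKM in the model livers. In the drug groups it was 0.922, 1.13 and 0.982 FPKM with silibinin and 1.07, 1.55 and 1.32 FPKM with phloridzin. The model livers stood above all 9 others. Klf4 rose in the model group (1.21 ± 0.15, adjusted p = 0.00035) and fell with silibinin (-0.97 ± 0.15, adjusted p = 0.0026) and with phloridzin (-0.77 ± 0.15, adjusted p = 0.0088), each with its SE and by limma.

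Thbd, the thrombin receptor thrombomodulin, had the same order of levels. It was 2.37, 0.917 and 1.64 FPKM in the control livers, 6.77, 7.87 and 7.23 FPKM in the model livers, 3.40, 3.81 and 1.48 FPKM with silibinin and 4.12, 3.07 and 2.36 FPKM with phloridzin. It rose in the model group (1.69, adjusted p = 0.0014) and fell with silibinin (-1.15, adjusted p = 0.021) and phloridzin (-1.01, adjusted p = 0.038) by limma. The silibinin call was lost without model 2, model 3 or silibinin 3 (adjusted p of 0.069, 0.052 and 0.063), and the phloridzin call with any of 7 livers left out (0.051 to 0.12). After median-ratio scaling Thbd kept its call with silibinin and lost it with phloridzin (-0.85, adjusted p = 0.062). The phloridzin call was also lost with a pseudocount of 0.1 (0.074), no filter (0.067), the row with the highest mean (0.061), voom (0.055) and voom under median-ratio scaling (0.074), as adjusted p values. Klf2, the remaining gene of the 3, did not pass in these comparisons, with log2 fold changes of -0.23, -0.09 and 0.26. As deposited, 2 of the 3 genes fell with silibinin, where 11.4% of all genes fell, and 2 of the 3 with phloridzin, where 10.4% of all genes fell and the Thbd call was lost under the alternatives named. Phloridzin and silibinin did not differ for Klf4 or Thbd (0.20 and 0.14, both with an adjusted p of 1 by limma).

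**Figure D5:**
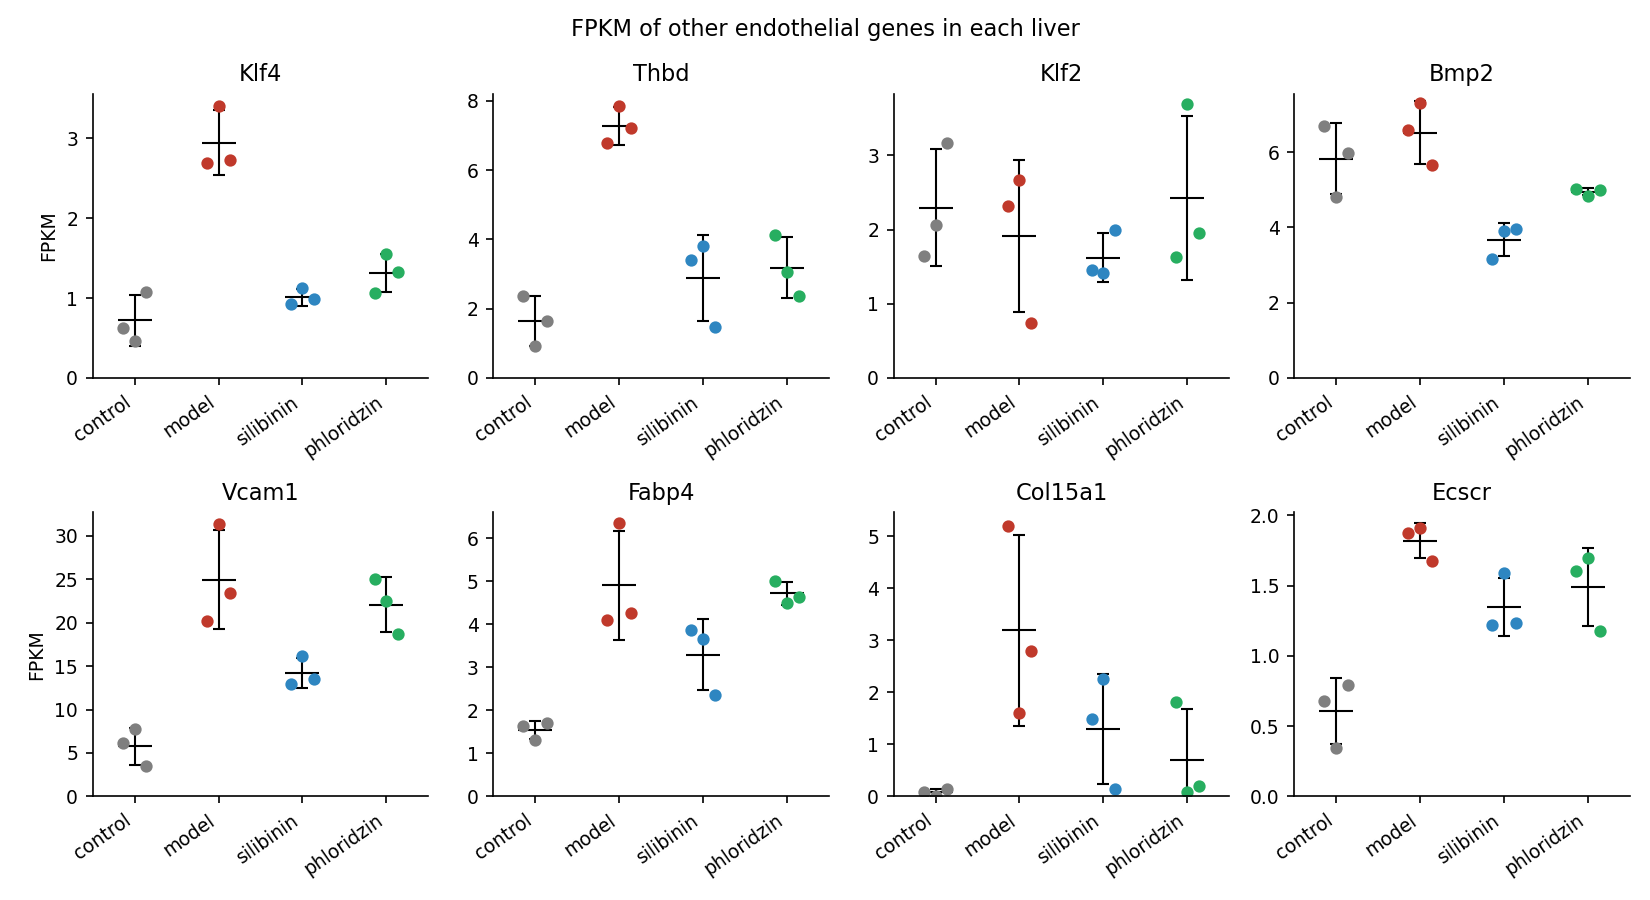
FPKM of 8 other endothelial genes in each liver (points), by group, with the group mean and SD (n = 3) in black; every vertical axis starts at 0. Klf4 and Thbd are highest in the model livers and lower in both drug groups, while Vcam1 stays above the control livers in every group given CCl4.

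Bmp2, a growth factor that sinusoidal endothelium sends to hepatocytes to control iron uptake, was the 1 of 14 other sinusoidal genes that fell with silibinin, where 11.4% of all genes fell. It was 6.68, 4.81 and 5.98 FPKM in the control livers, 6.60, 7.31 and 5.65 FPKM in the model livers and 3.17, 3.89 and 3.95 FPKM in the silibinin livers. The silibinin livers were below all others in the series, and the fall against the model group was -0.69 ± 0.14 (SE, adjusted p = 0.0095 by limma; 0.054 after median-ratio scaling). With phloridzin 0 of 14 passed by limma, where 12.9% of all genes did, and 0 by voom; 2 of 14 were at an unadjusted p under 0.05, against 3662 of 13158 genes. Of the 34 wider pan-endothelial and capillary, arterial and venous genes tested, 0 passed with silibinin by limma, where 14.1% of all genes did, and 0 by voom. At an unadjusted p under 0.05 there were 9 of the 34, near the share of 3844 of 13158 genes. With phloridzin 0 of the 34 passed by limma, where 12.9% of all genes did, and 0 by voom. At an unadjusted p under 0.05 there were 6 of the 34, against 3662 of 13158 genes. After median-ratio scaling Emcn passed with phloridzin and Bmp2 did not with silibinin, and on the TPM scale Sele fell with both drugs and Adam23 with phloridzin.

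Some members are also carried by other cells. Of 10 macrophage markers 4 rose in the model group, near the 31.1% of all genes that rose, and their summed level was 163, 277 and 238 FPKM in the control livers and 387, 648 and 522 FPKM in the model livers. In the drug groups that sum was 444, 594 and 465 FPKM with silibinin and 742, 755 and 406 FPKM with phloridzin, with Lyz2 the most abundant gene and none listed at 0. The rises were led by Lyz2 (2.16), Adgre1 (0.95) and C1qa (0.84) and came down to Lyz2 alone after median-ratio scaling. The call of Adgre1 was lost without control 1 (adjusted p = 0.091), control 3 (0.066), model 2 (0.079) or model 3 (0.080), and that of C1qa without control 1 (0.13), control 2 (0.073), model 2 (0.13) or model 3 (0.096). From the transcript with the highest mean alone, Adgre1 (1.32, adjusted p = 0.067) and C1qa (0.84, adjusted p = 0.063) did not pass by limma. C1qa, still at 0.84, also missed the threshold with no filter (adjusted p = 0.064) and from protein-coding transcripts (adjusted p = 0.051) by limma. The part of macrophages in Stab1, Lyve1 and Fcgr2b was not tested. B cell markers summed to 0.866, 1.95 and 2.14 FPKM in the control livers and 3.42, 4.33 and 3.77 FPKM in the model livers, with Cd79b the most abundant and none listed at 0. In the drug groups the sum was 4.13, 5.67 and 3.04 FPKM with silibinin and 5.48, 3.63 and 2.72 FPKM with phloridzin, below Fcgr2b in the same livers. The part of B cells in Fcgr2b was not tested.

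Of 10 stellate cell and myofibroblast markers 7 rose in the model group, where 31.1% of all genes rose, led by Col1a1 (4.35), Col3a1 (3.75) and Col1a2 (1.52), with Col3a1 the most abundant and Timp1 listed at 0 in a control liver. Their sum was 46.7, 33.1 and 44.8 FPKM in the control livers, 184, 154 and 190 FPKM in the model livers, 179, 177 and 94.7 FPKM with silibinin and 240, 111 and 86.7 FPKM with phloridzin, and Lrat fell with phloridzin (-0.83, adjusted p = 0.015 by limma). The Lrat call was lost without model 3 (0.051) or phloridzin 2 (0.063), and that of Col1a2 without control 2 (0.054), control 3 (0.061) or model 1 (0.059). Lrat was also lost in a fit of the groups alone (0.051), and from protein-coding transcripts Col1a2 was 0.53 with an adjusted p of 0.55. Col1a2 and Timp1 had control means of 0.395 and 0.0637 FPKM, under the filter of 0.5 FPKM. They were tested through their level in livers given CCl4, which favours counts of rises. Fibroblasts can carry Cd34, and the part of these cells in its rise was not tested. Of 4 lymphatic markers tested 1 rose, Pdpn (1.23), where 31.1% of all genes rose. Pdpn had a control mean of 0.303 FPKM, so it too was tested through its level in livers given CCl4. The lymphatic sum went from a mean of 3.09 to 7.14 FPKM. Prox1, which hepatocytes share, was most abundant, and Ccl21a was listed at 0 in all control livers and in model 3. The lymphatic sum was 3.24, 2.84 and 3.19 FPKM in the control, 9.26, 8.22 and 3.94 in the model, 6.16, 6.36 and 3.16 in the silibinin and 4.56, 8.62 and 4.77 in the phloridzin livers. Of 3 platelet markers tested 1 rose, Pf4, the most abundant, from 1.02 to 4.82 FPKM, where 31.1% of all genes rose. Gp9 was listed at 0 in model 2 and silibinin 2. The platelet sum was 4.89, 3.00 and 2.88 FPKM in the control, 10.1, 5.15 and 8.58 in the model, 6.78, 5.41 and 4.46 in the silibinin and 9.12, 5.73 and 5.03 in the phloridzin livers; their part in Lyve1 and Vwf was not tested.

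Epithelial cells were followed as well. Of 7 hepatocyte markers 1 fell in the model group, Cyp2e1 (-2.35, from 2812 to 504 FPKM), the enzyme that activates CCl4, and 0 rose, where 3.80% of all genes fell and 31.1% rose. From its transcript with the highest mean alone, Cyp2e1 was -1.07 with an adjusted p of 0.60. Of 3 cholangiocyte markers tested Spp1 (1.94), the most abundant, and Krt19 (0.73) rose, where 31.1% of all genes did. The Krt19 call was lost without control 1 (adjusted p = 0.053), control 2 (0.050), model 2 (0.063) or model 3 (0.059), after median-ratio scaling (0.52, adjusted p = 0.080) and with voom under it (0.074). Of the 30 hepatocyte, cholangiocyte, macrophage, B cell, lymphatic and platelet markers tested against the model group, 0 passed with silibinin by limma, where 14.1% of all genes did, and 0 by voom, with 1 of the 30 at an unadjusted p under 0.05, against 3844 of 13158 genes. With phloridzin 0 of the 30 passed by limma, where 12.9% of all genes did, and 0 by voom, with 2 of the 30 at an unadjusted p under 0.05, against 3662 of 13158 genes.

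The genes most like each marker group across the 12 livers were named by Pearson's r with its mean standardised level, among 11601 genes with a mean of at least 1 FPKM. Kdr (0.894), Tinagl1 (0.884), Sdc3 (0.862), Tek (0.861) and Erg (0.851) followed the sinusoidal markers most closely. Kdr and Tek encode receptors of endothelial cells for VEGF and angiopoietin, and Erg is an endothelial ETS factor. The capillary markers were followed by Pcolce (0.947), Eva1b (0.944), Tagln (0.935), Commd1 (0.933) and Fes (0.932), of which Pcolce encodes an enhancer of procollagen processing and Tagln a smooth muscle protein. These values describe livers that share 4 groups, so differences between groups and between livers both enter them.

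How far scaling sets the directions was read from all genes. In the model against the control group 4094 genes rose and 500 fell as deposited, but 1800 rose and 1451 fell after median-ratio scaling, which brought the median shift from 0.34 to 0.03. The counts for silibinin against model were 345 and 1504 as deposited and 737 and 855 after scaling, and for phloridzin against model 329 and 1362 and then 635 and 829. On the TPM scale, where every liver has the same sum, the splits were 6596 and 294, 297 and 1665, and 201 and 1987. Cd34 rose in the model group on all 3 scales (1.41, 1.14 and 1.91).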

How the data were processed

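The deposited table holds FPKM per transcript, which the authors computed for the 12 livers. The submitters' processing notes name bcl2fastq, FastQC 0.11.5, HISAT2 2.1.0, StringTie 1.3.3b and DESeq 1.28.0 with the mm10 build. The unit was read from the values. FPKM was summed over the rows of each symbol (82136 of 169430 rows have one), and 98.1% of Ensembl rows lay at their GENCODE M21 position. Genes with a mean of at least 0.5 FPKM over the 12 livers (13158) were tested on log2(FPKM + 1) with limma 3.58.1 (variance trend, R 4.3.3), 4 groups in 1 fit, two-sided, with Benjamini-Hochberg adjustment over all genes tested and a threshold of 0.05. The test was checked on simulated data. Depth came from the step of 1 fragment; 98.2% to 98.6% of low values of transcripts of at least 1500 bases were whole multiples within 0.05.

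Members and lists were chosen with earlier results of these data known. Named genes are all members, up to 3 rises and 3 falls per other list with an adjusted p under 0.05 in each of the model against control, silibinin against model and phloridzin against model comparisons, the most abundant gene of each list of other cells and its defining genes at 0, and the 5 genes most like each of the sinusoidal and capillary groups. Klf2, Ehd3, Ednrb, Ackr1, Emcn, Sele and Vegfa were named after their values were seen. Lists of other genes covered sinusoidal, pan-endothelial, capillary, arterial and venous, growth factor and flow-responsive genes, and macrophage, B cell, lymphatic, platelet, stellate, hepatocyte and cholangiocyte markers. Figures were drawn with matplotlib 3.10.9 (Python 3.11.15, pandas 2.3.3, numpy 2.4.6), and R also used the data.table package, version 1.17.8. Alternatives were other scalings, pseudocounts, filters, row choices, voom on recovered fragments, pairs of groups fitted alone, the replicate number as a block, and each liver left out in turn.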

Additional observations from a re-analysis of the deposited data

How the results depend on the processing

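The count of markers passing in the model against the control group was 1, and 2 after median-ratio scaling (Cd34 and Fcgr2b) and with voom under that scaling, 3 on the TPM scale (Cd34, Pecam1 and Stab1), and 1 to 2 with 1 liver left out. With silibinin against model it was 0, and 0 to 1 with 1 liver left out. With phloridzin against model it was 0, 1 on the TPM scale (Fcgr2b), and 0 to 0 with 1 liver left out. With silibinin against control it was 1, and 0 in a fit of these groups alone and for the row with the highest mean, and 0 to 1 with 1 liver left out. With phloridzin against control it was 2, 1 in a fit of these groups alone, 1 from protein-coding rows, 1 with the Fcgr2b sum less 1 transcript, 1 with a cutoff of 1 on the log2 fold change, 0 for the row with the highest mean, and 0 to 2 with 1 liver left out. The cause was not tested. Protein-coding rows, voom under median-ratio scaling, the shortened Fcgr2b sum and the alternatives for the balance of the markers were chosen after seeing the data; a sum over Ensembl rows equals the main sum.

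The balance of sinusoidal less capillary markers, model minus control, was -0.55; it was -0.22 without Cd34, -0.81 with a pseudocount of 0.1, and -0.65 to -0.49 with 1 liver left out. Fold changes of markers that turned sign are listed for the 3 comparisons drawn in the report, none with a call under that alternative; more turned in the comparisons of the drugs with control, such as Stab1 and Cdh5 with silibinin (-0.0497 and -0.131) and Clec4g and Plvap with phloridzin (-0.21 and -0.0512) after median-ratio scaling. Model against control: Stab1 -0.13 from the row with the highest mean, -0.088 from coding rows and -0.25 with voom under median-ratio scaling; Stab2 -0.13 and Plvap -0.0533 after median-ratio scaling, -0.012 and -0.0553 with voom under it; Clec4g 0.10 on the TPM scale. Silibinin against model: Fcgr2b 0.0725 after median-ratio scaling, 0.04 with voom and 0.25 with voom under that scaling; Pecam1 0.0179 after median-ratio scaling. Phloridzin against model, after median-ratio scaling and with voom under it: Stab1 0.059 and 0.11, Pecam1 0.0803 and 0.16, Cd34 0.12 and 0.17, Plvap 0.0022 and 0.0022. On the TPM scale Stab2 was -0.0051, Lyve1 -0.0073 and Vwf -0.0672, Stab2 was -0.0016 with voom, Pecam1 0.0645 and Cd34 0.12 from the row with the highest mean, and Pecam1 0.0471 from coding rows.

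With 1 liver left out, signs turned for Clec4g in model against control (-0.25 to 0.0294), for Stab2 (-0.62 to 0.0175), Pecam1 (-0.39 to 0.0886) and Cd34 (-0.14 to 0.45) in silibinin against model, and in phloridzin against model for Stab2 (-0.37 to 0.35), Lyve1 (-0.14 to 0.30), Clec4g (-0.0361 to 0.37), Pecam1 (-0.20 to 0.0076), Cd34 (-0.15 to 0.14), Plvap (-0.46 to 0.0019) and Vwf (-0.0911 to 0.25). With the replicate block, counts of markers were 1, 0, 0, 0, 1 and 2 in the 6 comparisons, as without it. Of 18 same-numbered pairs of livers 1 had a correlation over 0.1, as had 3 of 36 other pairs. No pairing by number was seen in these values, which cannot exclude one.

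The number of all genes called moved with several settings. For the row with the highest mean it was 2657, 1082, 922, 5, 179 and 313, against 4594, 1849, 1691, 3, 661 and 1051. With the fold cutoff they were 1382, 526, 463, 3, 261 and 398, with 1 liver left out 3508 to 5220, 1114 to 2255, 865 to 2077, 1 to 6, 134 to 1264 and 367 to 1281, and in fits of the groups alone 604 for phloridzin against model, 0 for phloridzin against silibinin and 207 for phloridzin against control. The comparisons with control gave 2203 and 1990 on the TPM scale, and silibinin against control 1092 with a pseudocount of 0.1. Depth limits Cd34 most, with 176 fragments in control 2.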
